A study of Homo sapiens with 24 samples.

Results

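The 41 genes described here encode parts of the lysosome and of the autophagy machinery, and were named by function in a list; the list was written with earlier results of these data known, although its rule uses no measured value. They were read on Affymetrix arrays that named 19775 genes, and of several probe sets for a gene, that of highest mean signal across all 24 arrays stood for it. GLB1, the lysosomal beta-galactosidase, had only a probe set shared with another gene symbol and was not analysed here. The other 40 members all passed the filter on low values and were among the 14141 genes tested. By role they were 3 transcription factors, 15 hydrolases and their cofactors, 12 membrane proteins and proton pump subunits, and 10 autophagy factors.

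The 24 arrays formed 8 groups of 3 and came from breast cancer lines of human origin: HS578T, SUM149PT and SUM159PT. AZD3965, which blocks MCT1, a carrier of lactate and pyruvate across the cell membrane, or its solvent DMSO was given to each line for 24 hours. SUM149PT cells were also transduced with lentivirus that carried either an MCT1 shRNA or a scramble shRNA, and both groups then spent 5 days under puromycin (2 µg/ml). Per the labels, HS578T grew in DMEM, whereas SUM149PT and SUM159PT grew in F12 with insulin, hydrocortisone, EGF and gentamicin. In comparisons with HS578T, line and medium therefore cannot be told apart. The labels give no number of shRNA sequences or of clones. Whether replicates were separate cultures is not stated, and p-values thus reflect the spread between these arrays alone, which may be technical. The level of the targeted transporter was not analysed here, and the knockdown was therefore not checked.

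Lysosomes are acidic organelles in which hydrolases break down proteins, glycans and lipids delivered by endocytosis and by autophagy. A vacuolar proton pump, made of a membrane-embedded V0 part and a cytosolic V1 part, keeps their lumen acidic, and heavily glycosylated membrane proteins line it. Autophagy encloses cytoplasm in a double membrane that then fuses with lysosomes. Many of these genes carry an E-box of a particular form, the CLEAR element, which is bound by the related transcription factors TFEB, TFE3 and MITF. These factors enter the nucleus when nutrient signalling through mTORC1 at the lysosome is low.

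The deposited intensities are MAS5 signals in arbitrary units, and the trimmed mean of every array was 500.1 units. No 2 arrays held identical values. Scramble shRNA array 3 stood apart from the rest. For actin, its control signal at the 3' end was 53.8 times that at the 5' end, where the 23 other arrays lay between 1.2 and 2.14 times. For GAPDH the ratio was 2.35, where the others lay between 0.798 and 0.948. The shRNA counts of calls, and the calls it changed, are therefore also given without it. Macrophages, which are rich in lysosomes, should be absent from the lines. Of 8 macrophage markers 3 passed the filter, and their summed signal over the 8 ran from 190 to 786 units an array. PTPRC, the pan-leukocyte marker, lay between 1.41 and 21.6 units on the shRNA arrays, at or near background. The list as a whole was not so low everywhere. Its sum was 577 to 786 units on the SUM149PT DMSO and AZD3965 arrays, against 215 to 307 units on the shRNA arrays. Of the 3 markers tested, 1 was called lower in HS578T than in SUM149PT (-3.01 on the log2 scale) and 0 higher, where 33.8% of all genes were lower. Epithelial markers summed to between 46973 and 65061 units in SUM149PT and to between 7706 and 13267 units in the other lines. In bulk RNA, fewer cells of a type and less RNA per cell cannot be told apart.

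The shRNA comparison asked how SUM149PT cells carrying the MCT1 shRNA differed from cells carrying the scramble shRNA. Of the 40 members 9 rose and 1 fell, at a Benjamini-Hochberg adjusted p under 0.05 over all 14141 genes (limma). Of all genes tested 14.9% passed, 7.22% higher and 7.64% lower. The median difference of the members was 0.10 on the log2 scale and that of all genes 0.00. The autophagy factor gene WIPI1, the autophagy receptor gene SQSTM1, the transcription factor gene TFEB and the hydrolase genes TPP1, PSAP, NEU1, HEXA and CTSA rose, as did the pump subunit gene ATP6V1C1, and the hydrolase gene GLA fell. Without scramble array 3, 10 rose and 1 fell, against 12.3% of all genes. Of these 11 calls, 8 were shared in the same direction with the first fit.

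Among the 3 transcription factors, TFEB rose. Its signals were 502, 471 and 580 units with MCT1 shRNA and 337, 402 and 333 units with scramble. All 3 MCT1 shRNA arrays lay above all 3 scramble arrays, and the log2 difference was 0.52 ± 0.13 (SE; limma adjusted p = 0.00897). Without scramble array 3 it was 0.47 (adjusted p = 0.0351). The call was lost without MCT1 shRNA array 3, where the difference was 0.43 (adjusted p = 0.0577). A second TFEB probe set gave 0.38 ± 0.23 (adjusted p = 0.338). TFE3 measured 1256, 1409 and 1551 units with MCT1 shRNA and 1647, 1724 and 1587 units with scramble. The MCT1 shRNA arrays all lay below, but the difference of -0.24 ± 0.11 did not pass (adjusted p = 0.151). MITF measured 302, 242 and 284 units against 284, 327 and 181 units, and the groups overlapped (0.09 ± 0.16, adjusted p = 0.768).

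Of the 15 hydrolase genes 5 rose and 1 fell, and their median difference was 0.13. The firmest of these was TPP1, a lysosomal tripeptidyl peptidase. It measured 1432, 1282 and 1399 units with MCT1 shRNA and 983, 938 and 912 units with scramble, so the groups were well apart (0.53 ± 0.07, adjusted p = 6.13e-06). Of its 4 probe sets, a second was also called higher (0.66 ± 0.11, adjusted p = 2.51e-04) and the others were not called. Their mean gave 0.50 ± 0.13 and passed (adjusted p = 0.0114). PSAP, the precursor of the saposins that assist sphingolipid breakdown, measured 4952, 5013 and 5837 units against 4099, 3723 and 3806 units. The arrays did not overlap, and the difference was 0.44 ± 0.09 (adjusted p = 0.0022), with 0.66 ± 0.14 on a second probe set (adjusted p = 0.00324). NEU1, the lysosomal sialidase, measured 618, 667 and 598 units against 439, 439 and 536 units. Again every MCT1 shRNA array was higher (0.41 ± 0.10, adjusted p = 0.00573). CTSA, the serine carboxypeptidase that protects NEU1 in a shared complex, measured 1943, 1981 and 2036 units against 1546, 1719 and 1489 units (0.33 ± 0.10, adjusted p = 0.0228).

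HEXA, the alpha subunit of beta-hexosaminidase, measured 1870, 1839 and 2091 units with MCT1 shRNA and 1315, 1433 and 1836 units with scramble. The highest scramble array was array 3, which nearly reached the lowest MCT1 shRNA array, and the difference was 0.35 ± 0.11 (adjusted p = 0.027). GLA, the alpha-galactosidase, fell from 2045, 1911 and 1751 units to 1645, 1591 and 1591 units. All its MCT1 shRNA arrays lay below the scramble arrays (-0.24 ± 0.07, adjusted p = 0.033). These last calls depended on single arrays. CTSA did not pass without MCT1 shRNA array 2 or 3 or scramble array 1 or 3 (adjusted p = 0.0581, 0.0757, 0.064 and 0.0816). HEXA did not pass without MCT1 shRNA array 1 or 3 or scramble array 1 or 2 (adjusted p = 0.0502, 0.123, 0.146 and 0.0793). GLA passed only without scramble array 3 (adjusted p = 0.0117), and its p otherwise lay between 0.0602 and 0.144. Averaging the 4 probe sets of HEXA gave -0.02 (adjusted p = 0.973). TPP1, PSAP and NEU1 passed in all 6 fits that left out 1 shRNA array.

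CTSD, the major aspartyl protease of lysosomes, showed how much scramble array 3 could weigh. It measured 770, 771 and 851 units with MCT1 shRNA and 384, 436 and 930 units with scramble. The MCT1 shRNA arrays lay above scramble arrays 1 and 2 and below array 3, and the difference of 0.55 ± 0.20 did not pass (adjusted p = 0.064). Without that array it was 0.93 ± 0.12 (adjusted p = 2.04e-05). The remaining 8 hydrolase genes did not pass. CTSH, a cysteine cathepsin, measured 2609, 2739 and 3053 units against 3362, 3116 and 3863 units, with all MCT1 shRNA arrays lower (-0.30 ± 0.12, adjusted p = 0.0999). CTSL, another, was at 3383, 3221 and 3084 units against 3113, 2840 and 2320 units (0.24 ± 0.09, adjusted p = 0.0874). The differences of CTSB, CTSC, CTSS, CTSZ, GAA and GUSB lay between -0.16 for CTSB and 0.13 for GAA.

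Of the 12 membrane and pump genes 1 rose, and their median difference was 0.14. ATP6V1C1, a V1 subunit of the pump, measured 2177, 2194 and 2097 units with MCT1 shRNA and 1825, 1972 and 1345 units with scramble. The lowest of these 6 was scramble array 3. The difference was 0.35 ± 0.09 (adjusted p = 0.0129), and without that array it was 0.18 and did not pass (adjusted p = 0.0751). The 4 ATP6V1C1 probe sets disagreed: a second one was higher at 0.31 ± 0.10 (adjusted p = 0.0439), while the others gave -0.23 and -0.49 without passing, and their average was -0.02 (adjusted p = 0.958). MCOLN1 and CD63 passed once scramble array 3 was left out. MCOLN1, the TRPML1 cation channel, measured 290, 282 and 290 units against 233, 201 and 489 units, a difference of 0.01 ± 0.19 with the array and 0.39 ± 0.11 without it (adjusted p = 0.978 and 0.0222). CD63, a tetraspanin, measured 11170, 11426 and 11616 units against 9730, 9343 and 11728 units, or 0.16 ± 0.08 with the array and 0.26 ± 0.07 without it (adjusted p = 0.201 and 0.0237). In both genes the MCT1 shRNA arrays lay between scramble array 3 and the other scramble arrays.

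ATP6V0E1, a small V0 subunit, measured 7452, 7462 and 7537 units against 6819, 5104 and 6040 units. All MCT1 shRNA arrays were higher, but the difference of 0.33 ± 0.13 did not pass (adjusted p = 0.0793). SCARB2, the receptor that carries glucocerebrosidase to the lysosome, measured 5375, 5007 and 5108 units against 4903, 4874 and 3794 units (0.20 ± 0.08, adjusted p = 0.0805). LAMP1, an abundant lysosomal membrane glycoprotein, measured 13360, 14875 and 15367 units against 13525, 13275 and 11881 units. Its groups overlapped (0.17 ± 0.09, adjusted p = 0.21), and its relative LAMP2 gave -0.08 ± 0.09 (adjusted p = 0.611). ATP6V1B2, a B subunit of the V1 part, measured 1815, 1683 and 1647 units against 1654, 1635 and 1467 units (0.11 ± 0.07, adjusted p = 0.308). The remaining pump subunits ATP6V0D1, ATP6V1A, ATP6V1D and ATP6V1H gave values between -0.06 and 0.18, and none passed.

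Of the 10 autophagy factors 2 rose, and the median difference of the group was -0.03. WIPI1, which binds phosphatidylinositol 3-phosphate on forming autophagosomes, measured 541, 482 and 524 units with MCT1 shRNA and 260, 236 and 294 units with scramble. The lowest MCT1 shRNA array was far above the highest scramble array. Its difference of 0.93 ± 0.13 (adjusted p = 2.51e-05) was the largest of the members, and a second probe set gave 1.26 ± 0.10 (adjusted p = 9.34e-09). SQSTM1, the receptor p62 that links ubiquitylated cargo to the autophagosome, measured 3751, 3359 and 4056 units against 2419, 2643 and 2818 units. The groups did not overlap (0.50 ± 0.07, adjusted p = 3.52e-05). Of its 4 other probe sets 1 also passed (0.83 ± 0.24, adjusted p = 0.0281), and 3 did not, with values from -0.20 to 0.45. Both genes passed in all 6 fits that left out 1 shRNA array, but SQSTM1 gave 0.29 and did not pass with the mean of its probe sets (adjusted p = 0.0896).

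The ubiquitin-like autophagosome proteins did not pass. MAP1LC3B, the gene of LC3B, measured 6366, 6359 and 5695 units with MCT1 shRNA and 6304, 5940 and 8392 units with scramble (-0.15 ± 0.09, adjusted p = 0.292). Its highest value was again on scramble array 3. GABARAPL2 measured 7881, 6141 and 8183 units against 8085, 6803 and 9638 units (-0.14 ± 0.11, adjusted p = 0.468), and GABARAPL1 gave -0.05 ± 0.16. The MCT1 shRNA and scramble arrays of all 3 genes overlapped. ATG5, which conjugates these proteins to lipid together with ATG12, measured 4329, 4631 and 4150 units against 4779, 4101 and 5608 units (-0.13 ± 0.09, adjusted p = 0.347). BECN1, of the autophagy lipid kinase complex, measured 2650, 2425 and 2544 units against 2329, 2475 and 2293 units (0.10 ± 0.07, adjusted p = 0.415). Both overlapped as well, and the scramble arrays of ATG5 were spread widely. ATG12 gave 0.08 ± 0.10, ATG7, the activating enzyme of the conjugation, -0.22 ± 0.18, and ULK1, the initiating kinase, 0.00 ± 0.20. The plot of signals on the shRNA arrays shows the members called with or without scramble array 3.

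**Figure D1:**
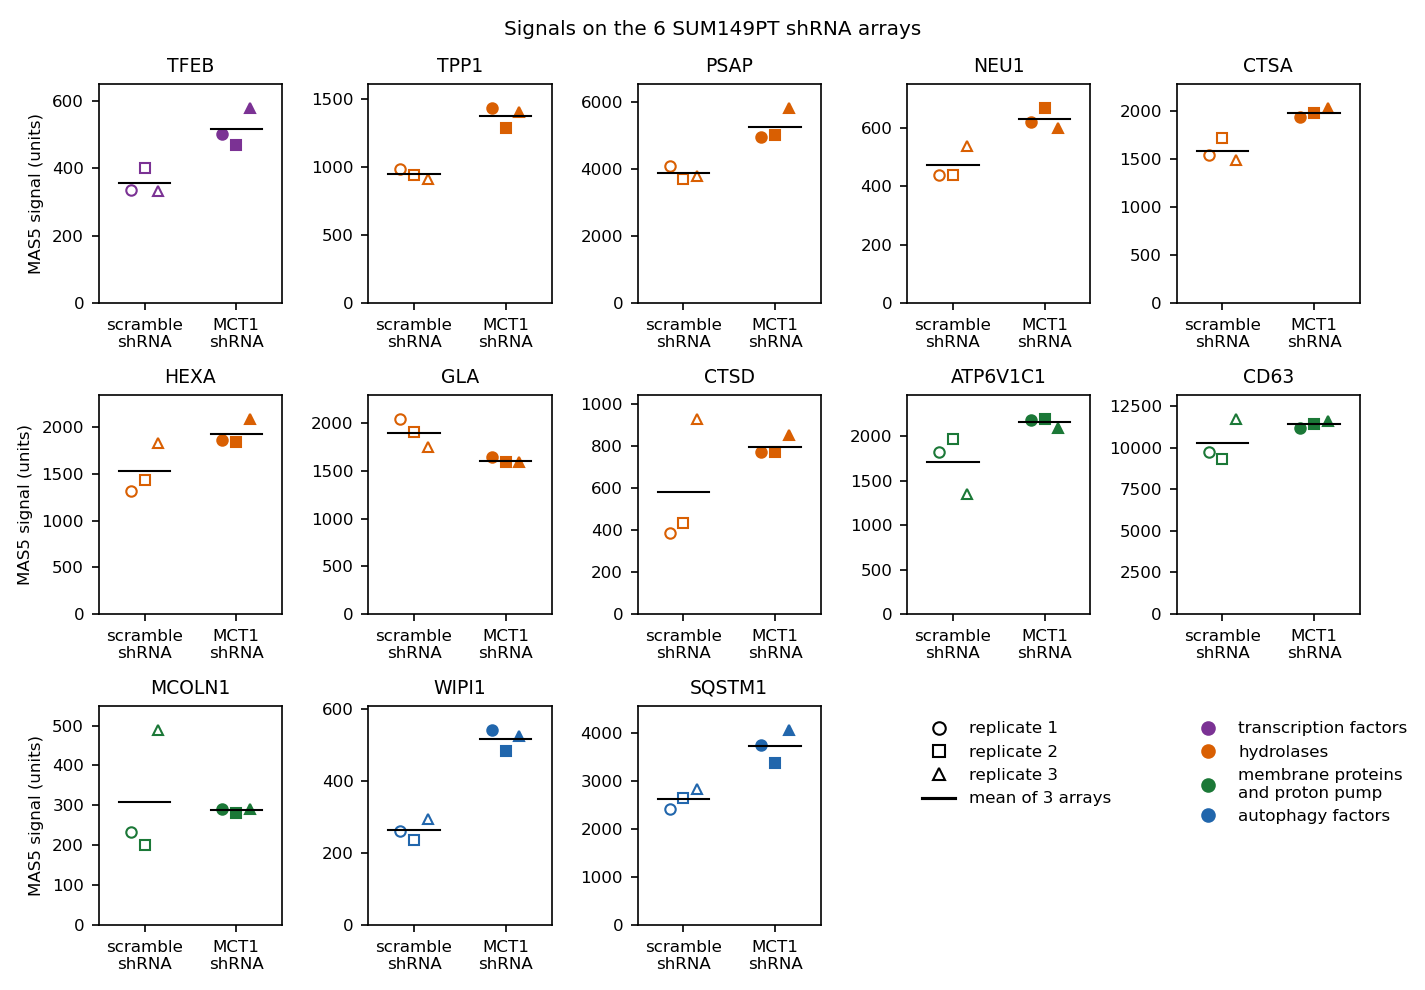
MAS5 signal in units (vertical axis, from 0) of the 13 members called with or without scramble array 3, on each of the 3 scramble and 3 MCT1 shRNA arrays of SUM149PT; symbols mark the replicate, bars the mean of 3 arrays and colours the role. Scramble replicate 3 (open triangle) lies above the other scramble arrays for CTSD (930 units) and MCOLN1 (489 units) and below them for ATP6V1C1 (1345 units), while for WIPI1, TPP1 and SQSTM1 the groups are clearly apart.

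For 16 of the 40 members the MCT1 shRNA and scramble arrays did not overlap, against 29.8% of all genes tested. Other scalings of the arrays moved the count both ways. After quantile normalization 12 members rose and 1 fell. Centring each array on its median moved the median of all genes to -0.12, and 3 members rose and 1 fell: WIPI1, TPP1 and SQSTM1 rose (0.82, 0.42 and 0.39), as differences from 0 rather than from that shifted median, and GLA fell. Fitting the 6 shRNA arrays alone left 4 members higher and none lower, namely WIPI1, TPP1, SQSTM1 and PSAP. The share of all genes called in each of these fits is not given here, so the counts cannot be set against it. Epithelial markers moved with the group as well. KRT19 and KRT8 rose by 1.09 ± 0.10 and 0.64 ± 0.17, and the 8 markers summed to between 60137 and 65061 units with MCT1 shRNA and to between 46973 and 50611 units with scramble. Without scramble array 3, KRT19 gave 0.97 ± 0.10 and passed, and KRT8 gave 0.33 ± 0.12 and did not (adjusted p = 1.02e-06 and 0.0798). That left 1 of the 8 called, or 12.5% against 12.3% of all genes. Of 8 mesenchymal markers 1 rose and 0 fell (12.5% called), with or without that array. The part of these marker differences in the results above was not tested.

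The promoters are shown because the family of TFEB acts through the CLEAR element and TFEB itself rose. RefSeq's promoter table (build GRCh38.p14) held windows for 31 of the 41 members, each of 300 bases from 250 before to 50 after a start site. It was searched on both strands for the E-box CACGTG, for the CLEAR core TCACGTGA, which contains that E-box, for its longer form GTCACGTGAC, which contains both, and for TGATGNAA, bound by dimers of C/EBP and ATF factors. The CLEAR core was found in 5 of the 31 members (16.1%), namely LAMP1, MCOLN1, CTSA, GAA and ATP6V0D1, and in 1.18% of all 27305 genes with a window. Lysosomal genes are known to carry this element, so the higher share in the members was foreseeable and is not evidence on the shRNA result. The E-box was found in 8 members (25.8%), the same 5 and CD63, CTSD and NEU1, and in 8.77% of all genes. The longer form was found in MCOLN1 and GAA, and in 0.421% of all genes. TGATGNAA was in none of the 31 and in 4.46% of all genes. The first core of each holder, with 11 bases on either side and the core in capitals, reads as follows. The sites lie at chr13:113297199-113297228 (plus strand, LAMP1), chr19:7522571-7522600 (plus, MCOLN1), chr20:45891298-45891327 (plus, CTSA), chr17:80101493-80101522 (plus, GAA) and chr16:67481199-67481228 (minus, ATP6V0D1).
LAMP1: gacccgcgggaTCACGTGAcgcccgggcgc
MCOLN1: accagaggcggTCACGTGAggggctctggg
CTSA: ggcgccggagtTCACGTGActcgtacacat
GAA: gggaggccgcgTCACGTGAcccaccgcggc
ATP6V0D1: cccccttatggTCACGTGAggcgcttgcgc

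LAMP1, MCOLN1 and GAA each had a second core, so the motif was repeated in 3 of the 5. Of the 10 members that changed with MCT1 shRNA, 7 had a window, 1 of these (CTSA) held the core and 2 (CTSA and NEU1) held an E-box. Of the 5 holders of the core, CTSA was the member that rose, while LAMP1, GAA, ATP6V0D1 and MCOLN1 gave 0.17, 0.13, 0.18 and 0.01 and did not pass on all 6 arrays. The GAA value also hung on scramble array 3 (816 units). Its MCT1 shRNA arrays (567, 570 and 656 units) lay below that array and above scramble arrays 1 and 2 (458 and 431 units). GAA was not called without array 3 either. The tally was different without scramble array 3: of 11 called members 9 had a window, 4 of these (CD63, MCOLN1, CTSD and NEU1) held an E-box and 1 (MCOLN1) held the core. The 250 bases before the start site of CTSA (chr20:45891085-45891334, plus strand) and of NEU1 (chr6:31862822-31863071, minus strand) are printed with each E-box or core in capitals.
CTSA: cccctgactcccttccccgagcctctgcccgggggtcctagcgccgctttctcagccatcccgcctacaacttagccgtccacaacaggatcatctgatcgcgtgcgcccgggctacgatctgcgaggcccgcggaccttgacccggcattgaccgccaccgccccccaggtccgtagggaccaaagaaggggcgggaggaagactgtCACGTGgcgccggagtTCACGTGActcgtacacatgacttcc
NEU1: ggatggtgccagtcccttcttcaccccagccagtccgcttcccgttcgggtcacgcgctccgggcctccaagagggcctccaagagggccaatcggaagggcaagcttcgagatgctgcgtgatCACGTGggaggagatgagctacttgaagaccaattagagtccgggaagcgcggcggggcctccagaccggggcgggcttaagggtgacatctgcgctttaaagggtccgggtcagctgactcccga
In CTSA an E-box began 42 bases and the core 26 bases before the start site, and in NEU1 the E-box began 126 bases before it. A match describes the letters of the window and does not show that a factor bound there.

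Other lysosomal genes, from lists written from general knowledge, were read in the same comparison, in which 14.9% of all genes passed (12.3% without scramble array 3). Of 19 further membrane proteins 8 rose and none fell (42.1% called), with a median of 0.35. Among them were SIDT2, a lysosomal nucleic acid transporter, from 558, 643 and 453 units to 980, 944 and 951 units (0.79 ± 0.12, adjusted p = 5.19e-05), and LMBRD1, which serves cobalamin export, by 0.59 ± 0.08 (adjusted p = 6.89e-06). ENTPD4, a nucleotide-hydrolysing enzyme of Golgi and lysosome, rose by 0.38 ± 0.09 (adjusted p = 0.00547). Of 28 further luminal proteins 6 rose and 3 fell (32.1% called), with a median of 0.00. LIPA, the acid lipase that frees cholesterol from its esters, rose from 3755, 3356 and 3461 units to 5208, 5914 and 5358 units (0.64 ± 0.09, adjusted p = 2.18e-05). MANBA, the beta-mannosidase, and ACP2, the lysosomal acid phosphatase, rose by 0.71 ± 0.16 and 0.42 ± 0.11 (adjusted p = 0.00372 and 0.0107). Of 14 further pump subunits only ATP6AP2, the renin receptor, rose (7.14% called), by 0.26 ± 0.07 (adjusted p = 0.0148). Without scramble array 3 the membrane list had 7 higher (36.8%), the luminal list 5 higher and 2 lower (25.0%), and the pump list 3 higher (21.4%). ATP6AP2 was not among these 3 (0.19 ± 0.07, adjusted p = 0.0842), while the other genes named here passed again.

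Of 36 further autophagy factors 5 rose and 1 fell, with a median of 0.05, and this share of 16.7% was near the 14.9% of all genes. BNIP3, a receptor for removing mitochondria, rose by 0.39 ± 0.06 (adjusted p = 1.14e-04), TAX1BP1, a cargo receptor, by 0.38 ± 0.09 (adjusted p = 0.0054), and ATG4A, a protease of the LC3 family, by 0.44 ± 0.11 (adjusted p = 0.00632). The list for mannose 6-phosphate sorting, which sends hydrolases to lysosomes, had 9 genes tested. IGF2R, a receptor for that tag, rose from 883, 831 and 808 units to 1435, 1495 and 1233 units (0.71 ± 0.12, adjusted p = 1.80e-04). SUMF1, on the list although it activates sulfatases and does not sort hydrolases, fell from 1278, 1336 and 1477 units to 882, 895 and 839 units (-0.63 ± 0.08, adjusted p = 7.78e-06). The sorting list had no other call (22.2% called). Of 27 genes of mTORC1 and lysosomal nutrient sensing 5 rose and 3 fell (29.6% called). SESN2, a stress-induced leucine sensor that restrains mTORC1, rose from 132, 74.8 and 187 units to 371, 450 and 430 units (1.63 ± 0.20, adjusted p = 4.45e-06). SLC38A9, the lysosomal arginine sensor, rose by 0.53 ± 0.09 (adjusted p = 3.58e-04), and SESN1, a paralogue of SESN2, fell by 0.73 ± 0.14 on the log2 scale (adjusted p = 6.39e-04). Without scramble array 3 these lists had 6 higher and 0 lower (autophagy), 1 higher and 1 lower (sorting), and 5 higher and 1 lower (nutrient sensing), or 16.7%, 22.2% and 22.2% against 12.3% of all genes. The genes named from these lists passed again.

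The inhibitor comparison asked what AZD3965 did to the same genes within 24 hours. No member passed in any line (limma, adjusted p), where 0.304% of all genes passed in HS578T, 0.0283% in SUM149PT and 0 in SUM159PT. At an unadjusted p under 0.05, 5 of the 40 members differed in HS578T, 5 in SUM149PT and 3 in SUM159PT, against 1171, 2330 and 954 of all 14141 genes (8.28%, 16.5% and 6.75%). Averaged over the 3 lines, 0 members passed, against 0.0283% of all genes, and 7 had an unadjusted p under 0.05, against 14.5% of all genes. The median differences of the members were 0.04 in HS578T, 0.05 in SUM149PT and 0.04 in SUM159PT, and those of all genes were -0.02, 0.04 and 0.00. AZD3965 and DMSO arrays did not overlap for 8 members in HS578T, 9 in SUM149PT and 6 in SUM159PT, against 19.3%, 21.0% and 12.6% of all genes. The 95% interval of each of the 40 members lay within a 2-fold change of signal + 16 in every line, and within a 1.5-fold change for 38 in HS578T, 35 in SUM149PT and 38 in SUM159PT. The added 16 understates changes of dim genes. For a gene such as CTSS (mean of 54.1 units in HS578T with DMSO) these bounds therefore do not hold for the signal itself.

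ATP6V0D1, the d subunit of the V0 part and a holder of the CLEAR core, had the smallest p in SUM149PT. It measured 5624, 6043 and 6390 units with AZD3965 and 4026, 4479 and 3843 units with DMSO. All AZD3965 arrays lay above, but the difference of 0.55 ± 0.12 did not pass (adjusted p = 0.139). It passed without SUM149PT AZD3965 array 1 (0.60, adjusted p = 0.0215), in a fit that called 648 genes. In SUM159PT the gene measured 3772, 2867 and 4142 units against 3625, 3203 and 2490 units, and in HS578T 3606, 3676 and 3791 units against 3772, 3627 and 2902 units. Both pairs of groups overlapped. The average over lines was 0.29 ± 0.07 (adjusted p = 0.153), and it passed without SUM159PT AZD3965 array 2 (0.34, adjusted p = 0.0384).

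In HS578T the smallest p was that of CTSC, the dipeptidyl peptidase that activates other proteases. It measured 8138, 7685 and 7966 units with AZD3965 and 6539, 6715 and 7184 units with DMSO, without overlap (0.22 ± 0.06, adjusted p = 0.14). NEU1 measured 1684, 1766 and 1694 units against 2297, 2056 and 1821 units (-0.25 ± 0.10, adjusted p = 0.413). WIPI1 measured 1506, 1523 and 1609 units against 1008, 1309 and 1384 units (0.33 ± 0.13, adjusted p = 0.434). Here NEU1 was lower on all AZD3965 arrays, the opposite sign to its shRNA difference, and WIPI1 was higher on all of them. In SUM149PT the next smallest p were those of CD63, at 8549, 9742 and 9921 units against 7836, 8524 and 8051 units (0.21 ± 0.08, adjusted p = 0.21), and of ATG12, at 1601, 1716 and 1539 units against 2337, 1753 and 1695 units (-0.24 ± 0.10, adjusted p = 0.224). The CD63 arrays did not overlap, and those of ATG12 did. In SUM159PT LAMP2 measured 1913, 1933 and 1755 units against 2495, 2141 and 1963 units (-0.23 ± 0.09). PSAP measured 8423, 8467 and 11499 units against 7957, 8418 and 7728 units (0.22 ± 0.09), with 1 AZD3965 array far above the rest. HEXA measured 1410, 1426 and 1661 units against 1322, 1287 and 1189 units (0.24 ± 0.11). None of these 3 overlapped, and for each, LAMP2, PSAP and HEXA, the adjusted p was 0.728. Averaged over lines, CTSC gave 0.10 ± 0.03 and CD63 0.13 ± 0.05 (adjusted p = 0.206 and 0.233).

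The transcription factors overlapped between AZD3965 and DMSO in every line. With AZD3965, TFEB measured 214, 228 and 276 units in HS578T, 277, 253 and 268 units in SUM149PT, and 415, 473 and 448 units in SUM159PT. Its differences were 0.04 ± 0.13, -0.04 ± 0.13 and -0.05 ± 0.13 in that order, so both signs occurred. TFE3 measured 1576, 1512 and 1604 units in HS578T, 2892, 2865 and 2281 units in SUM149PT, and 2651, 2967 and 2491 units in SUM159PT, with differences of 0.14 ± 0.11, -0.15 ± 0.11 and -0.15 ± 0.11. MITF measured 597, 635 and 629 units, 183, 176 and 153 units, and 565, 632 and 677 units in the same lines. Its differences of -0.09 ± 0.16, -0.26 ± 0.16 and -0.20 ± 0.16 were all below 0. The DMSO values are given with the lines. Whether the effect of AZD3965 differed between the lines was tested with an F test over the 3 effects. It called 0 of the 40 members and 0.120% of all genes. At an unadjusted p under 0.05 in that test, 5 members differed (12.5%), against 9.99% of all genes. Of the further lysosome and autophagy genes only BNIP3 passed with AZD3965, from 7428, 7101 and 6663 units to 11110, 10837 and 11250 units in HS578T (0.65 ± 0.06, adjusted p = 7.49e-06) and on average (0.24 ± 0.04, adjusted p = 0.0183). BNIP3 and its relative BNIP3L also differed between the lines in that F test (adjusted p = 0.00112 and 0.0404). The plot of AZD3965 differences shows the 40 members in the 3 lines.

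**Figure D2:**
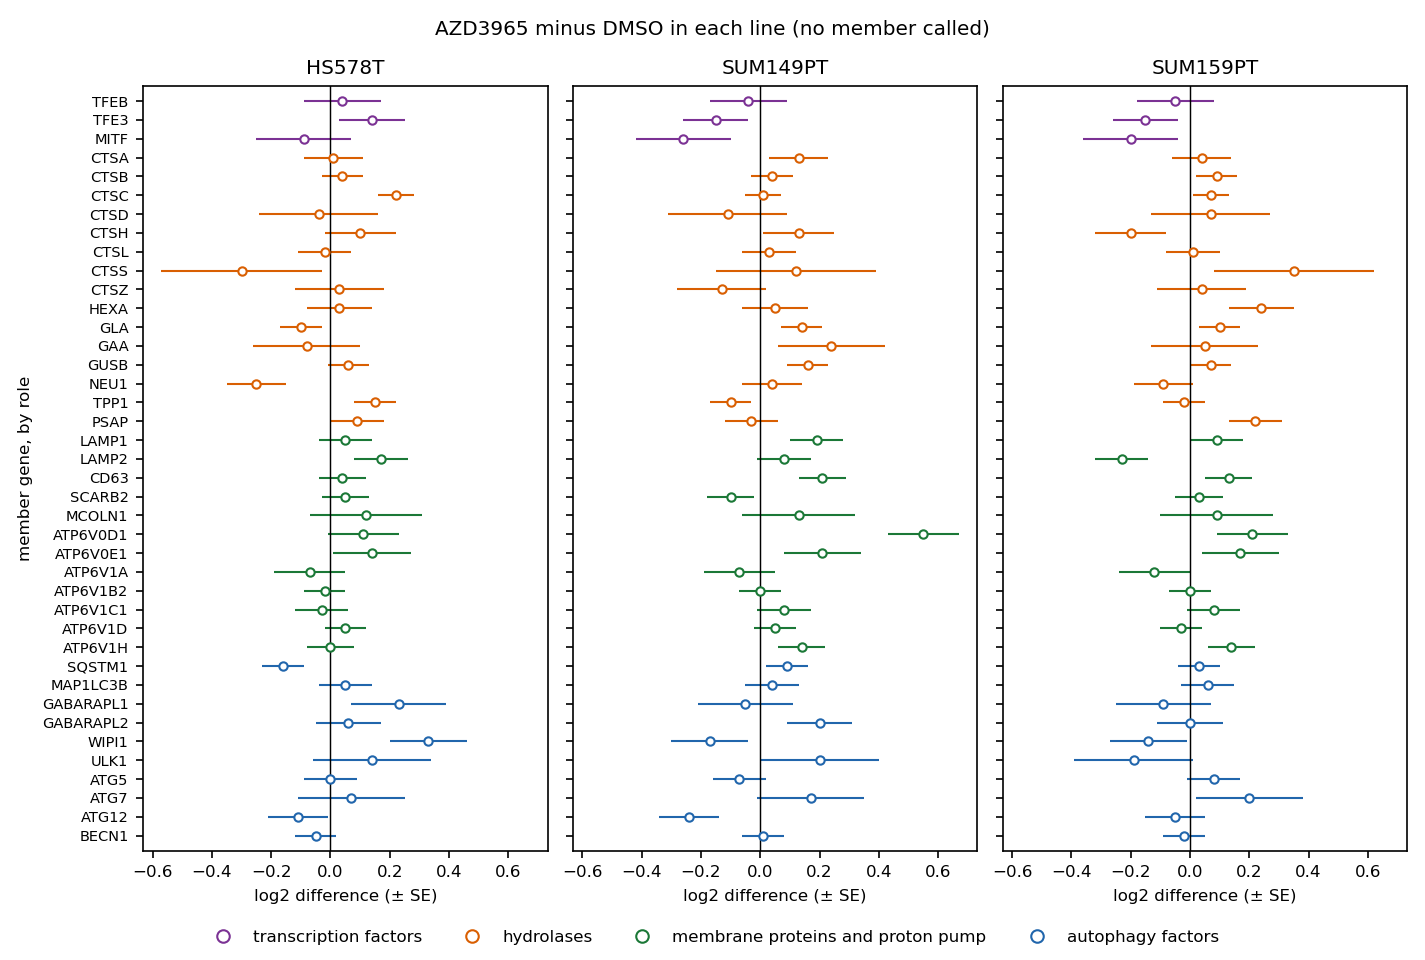
Log2 difference, AZD3965 minus DMSO, of each of the 40 members (horizontal axis; points with SE, 3 arrays a group) in HS578T, SUM149PT and SUM159PT; colours mark the role. No point passed the adjusted threshold, and the point farthest from 0 was ATP6V0D1 in SUM149PT at 0.55.

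Both perturbations were applied to SUM149PT, so the shRNA effect was compared with the AZD3965 effect by testing the difference of the 2 differences. They were given in different ways and for different times, and no dose or time was matched. Of the 40 members 5 differed, 4 higher and 1 lower, where 9.52% of all genes did, 4.58% higher and 4.94% lower. TPP1 differed by 0.63 ± 0.09 (adjusted p = 1.44e-04), with 0.53 under shRNA and -0.10 under AZD3965. WIPI1 differed by 1.10 ± 0.19 (adjusted p = 5.04e-04), with 0.93 and -0.17. SQSTM1 and PSAP differed by 0.41 ± 0.10 and 0.47 ± 0.13 (adjusted p = 0.0124 and 0.0278). GLA was lower by -0.37 ± 0.11 (adjusted p = 0.027), with -0.24 under shRNA and 0.14 under AZD3965. In all 5 the member had also changed with the shRNA. TFEB differed by 0.55 ± 0.19 without passing (adjusted p = 0.0627). Neither the membrane and pump genes nor the transcription factors had a member that passed, and ATP6V0D1 gave -0.36 ± 0.17 (adjusted p = 0.204). Without scramble array 3 these 5 passed again in the same direction together with CTSD, HEXA and NEU1, against 8.55% of all genes. Without SUM149PT AZD3965 array 2 or 3, or MCT1 shRNA array 3, the count was 3, and without scramble array 2 it was 8.

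**Figure D3:**
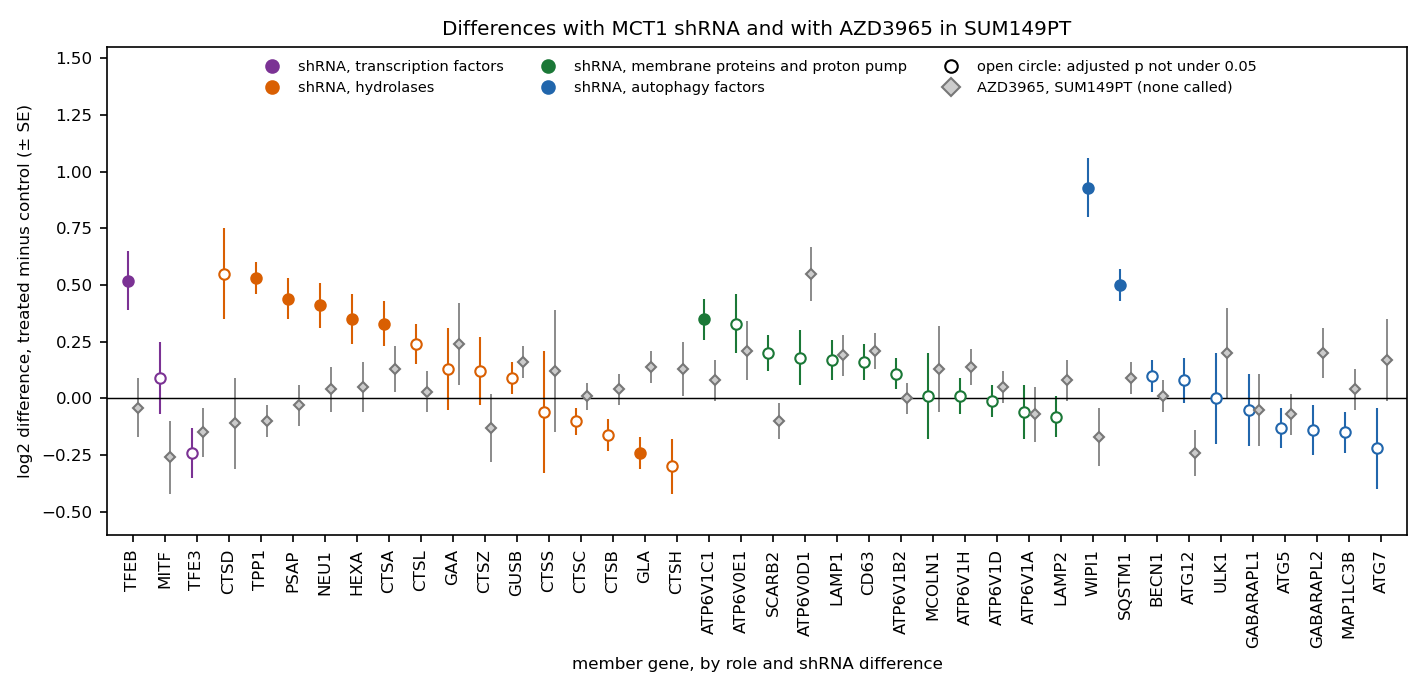
Log2 difference from control with SE (vertical axis) of the 40 members in SUM149PT, for MCT1 shRNA minus scramble (circles, coloured by role, filled where the adjusted p was under 0.05) and AZD3965 minus DMSO (grey diamonds), 3 arrays a group. The 10 filled circles include WIPI1 at 0.93, while no AZD3965 difference passed and the highest was ATP6V0D1 at 0.55.

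The untreated state of the lines was compared on the 9 DMSO arrays. The 3 pairwise comparisons share arrays with one another and with the AZD3965 comparisons. HS578T differed from SUM149PT in 34 of the 40 members, 23 higher and 11 lower, where 64.2% of all genes did, 30.4% higher and 33.8% lower. HS578T differed from SUM159PT in 26 members, 21 higher and 5 lower, against 58.0% of all genes, 27.3% higher and 30.7% lower. SUM149PT differed from SUM159PT in 27 members, 15 higher and 12 lower, against 59.4% of all genes, 30.0% higher and 29.3% lower. The median differences were 0.33, 0.25 and -0.01, with all genes at -0.02, -0.03 and -0.02. By these calls HS578T was above both other lines for 17 of the 40 members, SUM149PT for 9 and SUM159PT for 2. The shares of all genes tested were 17.1%, 20.2% and 14.0% in that order. Centring on medians moved the median of all genes to -0.12 in both HS578T comparisons and left 18 members higher and 12 lower against SUM149PT and 17 higher and 5 lower against SUM159PT. The share of all genes called after centring is not given here.

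Among the transcription factors each line had its own order. TFEB was highest in SUM159PT, at 486, 475 and 422 units, against 193, 264 and 243 units in HS578T and 279, 241 and 303 units in SUM149PT. The differences from SUM159PT were -0.94 ± 0.13 and -0.72 ± 0.13 (adjusted p = 1.22e-06 and 4.42e-05), and HS578T and SUM149PT did not differ beyond their spread (-0.22 ± 0.13, adjusted p = 0.141). TFE3 was lowest in HS578T, at 1224, 1384 and 1666 units, with 3089, 2672 and 3150 units in SUM149PT and 3149, 2974 and 2891 units in SUM159PT. The HS578T differences were -1.06 ± 0.11 and -1.08 ± 0.11 (adjusted p = 5.95e-09 and 6.38e-09), and the others overlapped. MITF was lowest in SUM149PT, at 171, 210 and 245 units, against 635, 664 and 685 units in HS578T and 681, 855 and 633 units in SUM159PT. Its differences from SUM149PT were 1.60 ± 0.16 for HS578T and, with the sign of SUM149PT minus SUM159PT, -1.72 ± 0.16 (adjusted p = 6.67e-09 and 2.67e-09).

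All 15 hydrolase genes differed between HS578T and SUM149PT, 9 higher and 6 lower in HS578T. CTSH spanned the widest range of any member. It measured 2473, 2576 and 2508 units in SUM149PT, 315, 295 and 271 units in HS578T, and 104, 146 and 117 units in SUM159PT. No arrays of different lines overlapped, and SUM149PT exceeded SUM159PT by 4.21 ± 0.12 (adjusted p = 5.47e-19) and HS578T exceeded SUM159PT by 1.17 ± 0.12 (adjusted p = 9.24e-09). CTSB, a cysteine protease, was highest in HS578T, at 15340, 15046 and 13783 units, with 5890, 6023 and 5826 units in SUM159PT and 3625, 3843 and 3737 units in SUM149PT. Its HS578T excess was 1.97 ± 0.07 over SUM149PT and 1.31 ± 0.07 over SUM159PT (adjusted p = 4.92e-17 and 1.60e-13).

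Other hydrolase genes were likewise above both other lines in HS578T. NEU1 measured 2297, 2056 and 1821 units there, against 930, 989 and 1044 units in SUM149PT and 806, 705 and 658 units in SUM159PT. CTSA, its partner, measured 4813, 4554 and 4158 units in HS578T, 1833, 1985 and 2371 units in SUM149PT, and 2215, 2168 and 2187 units in SUM159PT. For CTSA the last 2 lines overlapped, while for NEU1 all 3 lines were apart. CTSL measured 5923, 6273 and 5976 units in HS578T, 3027, 3105 and 3207 units in SUM149PT, and 2529, 2805 and 2448 units in SUM159PT. HEXA measured 2140, 1968 and 1776 units, 1521, 1684 and 1451 units, and 1322, 1287 and 1189 units in the same order. In both the lines were apart, HS578T highest and SUM159PT lowest. TPP1 was also highest in HS578T, at 1758, 1880 and 1750 units, but its lowest line was SUM149PT, at 829, 887 and 829 units. In SUM159PT it measured 1312, 1324 and 1343 units. PSAP and CTSD were low in SUM149PT and did not differ between the other lines beyond their spread. PSAP measured 4238, 4477 and 4309 units in SUM149PT, 7869, 7744 and 6965 units in HS578T, and 7957, 8418 and 7728 units in SUM159PT. CTSD measured 535, 642 and 529 units in SUM149PT, 859, 954 and 1116 units in HS578T, and 861, 860 and 857 units in SUM159PT. GAA, the acid alpha-glucosidase that degrades glycogen, was low in HS578T, at 243, 199 and 182 units, with 399, 468 and 502 units in SUM149PT and 427, 274 and 372 units in SUM159PT.

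SUM149PT led for CTSC, CTSH, CTSS, CTSZ and GUSB. CTSC measured 12454, 12001 and 13143 units in SUM149PT, 6539, 6715 and 7184 units in HS578T, and 6121, 6022 and 5922 units in SUM159PT, and the SUM149PT excess over SUM159PT was 1.05 ± 0.06 (adjusted p = 9.53e-14). CTSZ, a carboxypeptidase, was lowest in SUM159PT, at 2182, 2167 and 2528 units, against 8018, 5794 and 7067 units in SUM149PT and 4647, 4854 and 6146 units in HS578T. The SUM149PT and HS578T arrays of CTSZ overlapped, although the difference passed (-0.41 ± 0.15, adjusted p = 0.0183). CTSS, a cathepsin known from antigen-presenting cells, was dim, at 162, 138 and 132 units in SUM149PT and between 31.3 and 69.9 units in the other lines. GUSB, the beta-glucuronidase, measured 3160, 3644 and 3402 units in SUM149PT, 2322, 2181 and 2061 units in HS578T, and 2176, 2281 and 2314 units in SUM159PT. It differed by -0.63 ± 0.07 between HS578T and SUM149PT (adjusted p = 8.67e-09), and HS578T and SUM159PT overlapped. GLA was the hydrolase highest in SUM159PT, at 2182, 2324 and 2302 units, against 1769, 1634 and 1562 units in HS578T and 1371, 1452 and 1380 units in SUM149PT.

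HS578T was above both other lines for 8 of the 12 membrane and pump genes, against 17.1% of all genes. The 14 further pump subunits tested went less that way. Against SUM149PT 2 were higher and 7 lower in HS578T (all genes 30.4% and 33.8%). Against SUM159PT 3 were higher and 5 lower (all genes 27.3% and 30.7%). Of the 19 further membrane proteins 12 were higher and 3 lower against SUM149PT, and 11 higher and 3 lower against SUM159PT. LAMP2 measured 6283, 6299 and 5634 units in HS578T, 2152, 2287 and 2196 units in SUM149PT, and 2495, 2141 and 1963 units in SUM159PT. The HS578T arrays were far above the rest, by 1.45 ± 0.09 and 1.46 ± 0.09 (adjusted p = 1.15e-12 and 1.59e-12), and SUM149PT and SUM159PT overlapped. Another LAMP2 probe set was called in the opposite direction against SUM159PT (-0.48 ± 0.14, adjusted p = 0.00526), so the LAMP2 difference depends on the probe set. Of the pump, ATP6V1C1 measured 5984, 5590 and 5459 units in HS578T, 2798, 3150 and 3034 units in SUM149PT, and 2422, 2414 and 2369 units in SUM159PT. ATP6V1H, a regulatory V1 subunit, measured 2567, 2344 and 2298 units in HS578T, 1387, 1495 and 1302 units in SUM149PT, and 1463, 1460 and 1273 units in SUM159PT. HS578T was apart from both other lines for each subunit, by 0.78 ± 0.08 against either line for ATP6V1H. ATP6V0E1 measured 14015, 12153 and 10939 units in HS578T, 7136, 8436 and 6659 units in SUM149PT, and 7409, 9592 and 6857 units in SUM159PT. ATP6V1A, the catalytic A subunit, measured 4748, 4899 and 4590 units, 3755, 3962 and 3771 units, and 4420, 3320 and 3955 units in that order. ATP6V1B2 measured 2990, 2973 and 2883 units, 2079, 2257 and 2020 units, and 2188, 2258 and 2223 units. For these 3 subunits the HS578T excess was 0.29 to 0.74, and SUM149PT and SUM159PT overlapped.

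The membrane proteins outside the pump followed less uniformly. MCOLN1 measured 791, 843 and 748 units in HS578T, 508, 555 and 484 units in SUM149PT, and 308, 320 and 317 units in SUM159PT, with no overlap. SCARB2 measured 5828, 6082 and 5834 units in HS578T, 4213, 4693 and 4543 units in SUM149PT, and 4778, 4937 and 4555 units in SUM159PT, and HS578T was higher by 0.40 ± 0.08 and 0.31 ± 0.08. LAMP1 and the pump subunit ATP6V1D were instead highest in SUM149PT, by 0.20 to 0.33. LAMP1 measured 14743, 16460 and 14064 units in SUM149PT, 12120, 12385 and 11668 units in HS578T, and 12128, 14043 and 11874 units in SUM159PT. ATP6V1D measured 6828, 7635 and 6944 units, 5449, 5683 and 5930 units, and 6255, 6348 and 6027 units in that order. ATP6V0D1 passed only between SUM149PT and SUM159PT (0.42 ± 0.12, adjusted p = 0.00526). CD63 was lowest in SUM149PT, at 7836, 8524 and 8051 units, with 15482, 14692 and 13754 units in HS578T and 12761, 14425 and 12744 units in SUM159PT.

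The autophagy factors were divided. GABARAPL1 measured 404, 424 and 427 units in SUM149PT, a mean of 139 ± 38.1 units (SD, n = 3) in SUM159PT, and 64.4, 50.3 and 61.8 units in HS578T. The lines did not overlap, and the difference of HS578T from SUM149PT was -2.54 ± 0.16 (adjusted p = 1.08e-12). MAP1LC3B was also highest in SUM149PT, at 6915, 7089 and 6973 units, with 5346, 4870 and 4775 units in HS578T and 2518, 2547 and 2513 units in SUM159PT. Another MAP1LC3B probe set was called higher in HS578T than in SUM149PT (0.30 ± 0.09, adjusted p = 0.00679), against -0.48 ± 0.09 for the chosen one. WIPI1 was highest in HS578T, at 1008, 1309 and 1384 units, with 439, 380 and 526 units in SUM149PT and 572, 510 and 606 units in SUM159PT. ATG12 measured 3121, 3504 and 3520 units in HS578T, 2337, 1753 and 1695 units in SUM149PT, and 2601, 2299 and 2487 units in SUM159PT. SQSTM1 measured 5508, 5788 and 5103 units, 4564, 4922 and 4637 units, and 4404, 4266 and 4170 units in that order. HS578T was apart from the others in both, for SQSTM1 by 0.21 ± 0.07 over SUM149PT and 0.35 ± 0.07 over SUM159PT. For SQSTM1 versus SUM149PT, 2 other probe sets were called lower in HS578T (-1.03 and -0.79). ATG5 and ATG7 passed in no pair. BECN1, GABARAPL2 and ULK1 passed in 1 pair each: BECN1 and ULK1 were lower in SUM149PT than in SUM159PT (-0.22 ± 0.07 and -0.69 ± 0.20, adjusted p = 0.0132 and 0.00445), and GABARAPL2 was higher in HS578T than in SUM149PT (0.40 ± 0.11, adjusted p = 0.00394).

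Across all members, 57 other probe sets of 26 genes were read, and 3 were called opposite to the chosen one for HS578T against SUM149PT, 2 for HS578T against SUM159PT and 1 for SUM149PT against SUM159PT. Beside those named, they were a CTSC probe set against SUM159PT (-0.22 against 0.18) and a TPP1 probe set between SUM149PT and SUM159PT (0.53 against -0.64). Many others were not called. Where the chosen probe set was called, the same call was found for 30 of 50, 23 of 42 and 12 of 32 others in these comparisons. In the shRNA comparison it was found for 5 of 15, and in the shRNA effect minus the AZD3965 effect for 2 of 8. The map of DMSO arrays shows the 40 members by role.

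**Figure D4:**
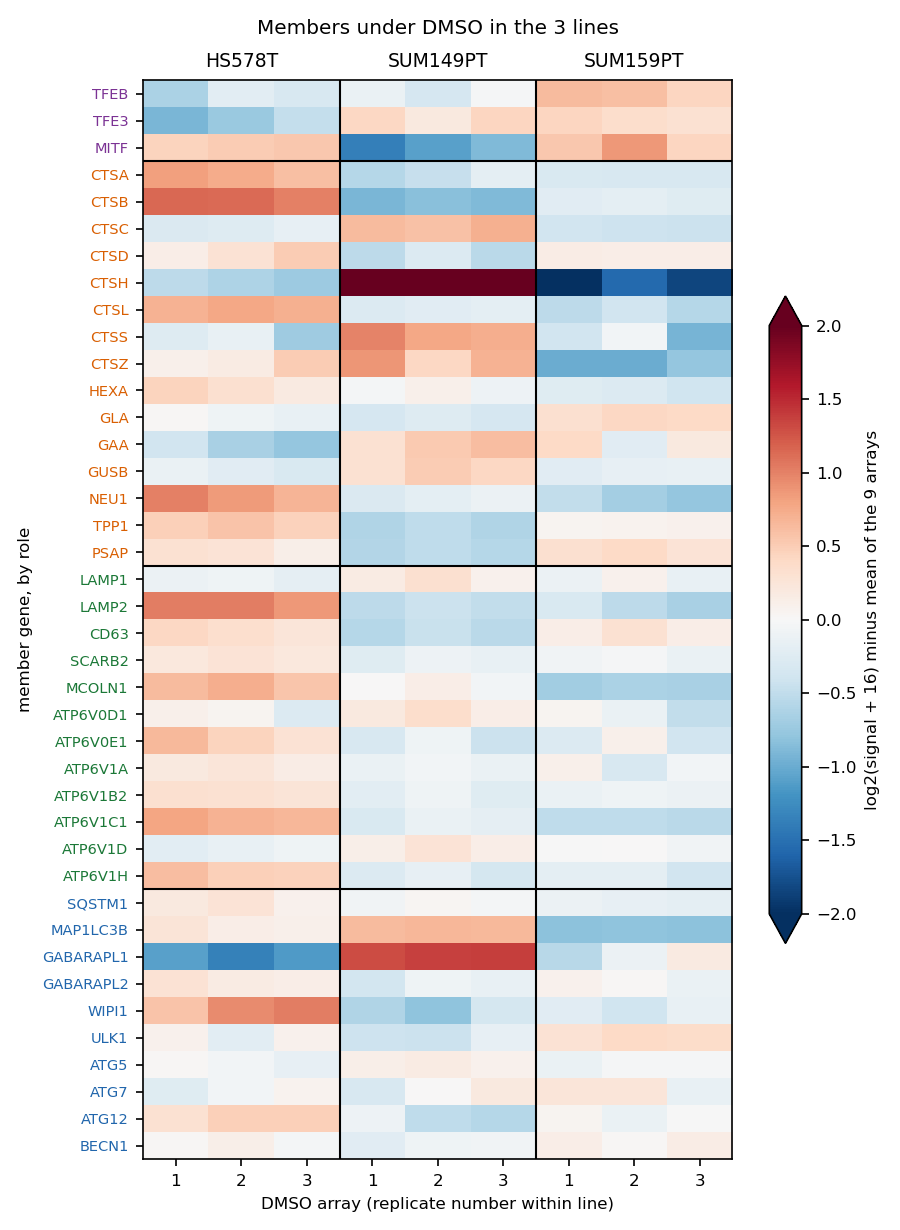
Colour map of log2(signal + 16) minus the mean of the 9 DMSO arrays, for the 40 members (rows, by role) on the 3 arrays of each line (columns); the scale is cut at 2 on both sides. CTSH is high in SUM149PT and low in SUM159PT, CTSB and LAMP2 are high in HS578T, and GABARAPL1 is high in SUM149PT and low in HS578T.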

How the data were processed

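The members and lists were chosen with earlier results of these data known. The authors deposited 1 linear intensity per probe set, made with MAS5 per the submitters' processing notes, which name no version. Arrays were used as deposited. Each gene was read from the probe set with 1 symbol and the highest mean log2 value over the 24 arrays, and 1801 of 54675 probe sets had several symbols and were left out. Values were analysed as log2(signal + 16), which understates changes of dim genes, and genes under a mean of 5.58 (40th percentile of probe sets) were not tested. All 24 arrays entered 1 fit of 8 group levels in limma 3.58.1 in R 4.3.3 (eBayes with trend, 16 residual and 6.52 prior degrees of freedom), two-sided, with Benjamini-Hochberg adjustment over 14141 genes at 0.05. The code was tested on simulated data. The number of arrays limits the precision.

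Every member is counted in each comparison. Given with all arrays are called members and up to 6 of smallest p per role for the shRNA and line comparisons, up to 3 for each AZD3965 comparison, and the 3 transcription factors. Up to 3 called genes of smallest p represent each further list. Promoters of called members with a CLEAR core or E-box are printed; the sites of the other core holders were added after their values were seen. Alternatives were quantile normalization, median centring, offsets of 1 and 64, no filter or one at the 60th percentile, the mean of probe sets, a replicate block, no trend, the compared groups alone, and leaving out each array.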

Additional observations from a re-analysis of the deposited data

How the results depend on the processing

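With 3 arrays a group, and an array of unusual 3' to 5' ratios among the scramble controls, several shRNA calls depended on the settings. They were not only the smallest differences: TFEB, at 0.52, did not pass with median centring (limma adjusted p = 0.0941). The count of 10 members for the shRNA comparison was 4 with median centring and 4 with only the compared groups fitted, 13 with quantile normalization, and 6 to 11 when 1 array was left out. The count of 5 for the shRNA effect minus the AZD3965 effect was 2 with median centring, 2 with the mean of the probe sets, 3 with the compared groups alone, and 3 to 8 when 1 array was left out. For AZD3965 in SUM149PT and on average the count was 0 to 1 when 1 array was left out. These counts, and those with a replicate block below, are given without the share of all genes called in the same fit. Averaging probe sets turned the sign of HEXA (-0.02) and ATP6V1C1 (-0.02) in the shRNA comparison and of ATP6V1C1 between SUM149PT and SUM159PT (-0.06). Beyond the fewer arrays or genes that a setting leaves, the cause was not tested. For 114 member differences, the 102 called ones and 12 of smallest p with AZD3965, 1770 of 1888 values under the alternatives kept their direction and side of the threshold, 113 no longer passed, 2 newly passed and 3 changed sign. Of all 258 differences not called at first, 27 passed under some alternative, 8 of them in the shRNA comparison (ATG5, ATP6V0E1, CD63, CTSD, CTSH, CTSL, MCOLN1 and SCARB2). Same-numbered arrays showed little shared deviation. For the 3 shRNA pairs the correlations of their deviations were 0.024, -0.05 and -0.006. For the AZD3965 pairs they ran from -0.131 in SUM159PT to 0.083 in SUM149PT. Such values cannot tell whether same-numbered samples were handled together. With the replicate number as a block, 11 members passed in the shRNA comparison, 5 in the difference of effects, 0 with AZD3965, and 34, 26 and 27 between lines.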

Other observations

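The same line was used in both experiments, and several members stood at other levels in the scramble group than in the DMSO group of SUM149PT. This difference was not tested, since virus, selection and time of culture all differed between the experiments. SQSTM1 measured 4564, 4922 and 4637 units with DMSO and 2419, 2643 and 2818 units with scramble, and its 3751, 3359 and 4056 units with MCT1 shRNA lay between them. NEU1 measured 930, 989 and 1044 units with DMSO, 439, 439 and 536 units with scramble, and 618, 667 and 598 units with MCT1 shRNA, again between. For TPP1 and TFEB the order was different: the DMSO arrays of TPP1 (829, 887 and 829 units) lay below both shRNA groups, as did those of TFEB (279, 241 and 303 units). TFE3 measured 3089, 2672 and 3150 units with DMSO and at most 1724 units on any shRNA array.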
